A study of Homo sapiens with 6 samples.

Results

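The integrin and laminin subunit genes were examined in WM164 cells, an established human melanoma line, and were taken as every protein-coding gene of the count table whose symbol is that of an integrin alpha subunit, an integrin beta subunit, or a laminin alpha, beta or gamma chain. This gave 38 of the 58870 genes in the table, of which 26 encode integrin subunits and 12 encode laminin chains, and 32 of them received an adjusted p. RNA sequencing was analysed in 6 libraries. In the 3 libraries labelled GFP the cells overexpressed green fluorescent protein as the control, and in the 3 labelled T-MGM they overexpressed a tethered dimer in which the melanoma-specific isoform of MITF is joined to MAFG by a flexible linker. Per the study's methods, both inserts were carried by lentiviral vectors with the EF1α promoter and blasticidin resistance, and per the labels all cells were grown in RPMI medium with 5% fetal bovine serum. Only 1 cell line was used, and the labels do not state whether the libraries of a group came from separate cultures, so the p-values below measure the spread between these libraries, which may be technical. Fold changes compare the libraries labelled T-MGM with the GFP libraries on the log2 scale throughout.

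Integrins are receptors of the cell surface made of 1 alpha and 1 beta subunit, which bind the extracellular matrix outside the cell and couple to actin through talin and kindlin inside it. Laminins are trimers of an alpha, a beta and a gamma chain and are main components of basement membranes, where they are bound by integrins that contain ITGA3, ITGA6 or ITGA7. In melanocytic cells, integrins that contain ITGAV and ITGB3 are known for the growth of melanoma into the dermis. MITF is the lineage transcription factor of melanocytes and MAFG is a small MAF protein, and the comparison of T-MGM with GFP asked how transcript levels differed in cells given the joined pair.

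Total counts were 35057239 to 38738065 in GFP libraries and 44577774 to 59250663 in those labelled T-MGM, of which the 38 genes took 0.295% to 0.298% and 0.313% to 0.319%. All 7 melanocytic markers examined were present, with a summed level of 1140 to 1170 TPM (transcript abundance scaled for length and for the size of the library) in GFP libraries and 972 to 1010 TPM in those labelled T-MGM. Among them DCT, an enzyme of melanin synthesis, was at 54.43, 57.55 and 57.17 TPM in GFP libraries and 8.06, 8.91 and 8.84 TPM in those labelled T-MGM, and MLANA, a melanosome protein, at 69.46, 68.31 and 70.66 TPM and at 39.74, 40.2 and 39.37 TPM, both without overlap. The other melanocytic markers differed less. SOX10, the most abundant, was at 416, 419.1 and 412.8 TPM in GFP libraries and overlapped with 389.4, 414.1 and 404.1 TPM in those labelled T-MGM. PMEL was at 255.7, 254.4 and 245.9 TPM and at 235.1, 240.3 and 236 TPM. These TPM values were not read relative to the median gene, which was at -0.15 on the log2(TPM + 0.1) scale. In counts divided by the size factor, PMEL and SOX10 were higher in every library labelled T-MGM than in every GFP library. DCT, MLANA, TYR and S100B were lower in every one by the same measure. Most markers of other cell types were low: 1 of 6 leukocyte markers (CD68), 1 of 5 fibroblast markers (LUM), 1 of 4 keratinocyte markers (KRT10) and 0 of 4 endothelial markers reached a mean of 1 TPM. Over the 6 libraries KRT10 was at 19.54 to 21.85 TPM, CD68 at 10.03 to 15.24 TPM and LUM at 3.42 to 5.65 TPM. The summed fibroblast markers, which include COL1A1, were at 3.81 to 4.83 TPM in GFP libraries and 5.34 to 6.69 TPM in those labelled T-MGM. The genes of the construct gave no clear check of the labels from which the directions are taken. MAFG had a mean of 2458 ± 70.3 normalized counts in GFP libraries and 2358 ± 34.9 in those labelled T-MGM (SD, n = 3 each, log2 fold change -0.06, SE 0.04, adjusted p = 0.236). MITF was higher by 0.08 in counts (SE 0.02, adjusted p = 4.8e-07). In TPM both genes were lower in every library labelled T-MGM than in every GFP library. MITF was at 136.57, 139.21 and 139.34 TPM in GFP libraries and 132.93, 135.03 and 129.61 TPM in those labelled T-MGM. MAFG was at 10.22, 9.55 and 9.88 TPM and at 8.69, 8.5 and 8.25 TPM. Reads of the construct that match these genes would be counted with the endogenous transcripts.

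In counts, more integrin and laminin genes were higher than lower in the libraries labelled T-MGM. By limma on TPM the majority turned, with 5, 5 and 4 higher and 7 lower in each of 3 fits. In RNA from whole cultures, a change in the share of cells that express a gene cannot be told apart from a change per cell. Of the 32 genes, 4 passed an adjusted p at or under 0.05 and a change over 2-fold, and all were higher: ITGA1 and ITGA3, receptor subunits for collagen and for laminin, ITGB4, a beta subunit of hemidesmosomes, and the laminin chain LAMC3. These were 12.5% of the 32 genes tested, where 4.63% of all 19135 genes tested were called in either direction and 3.26% were called higher. By the adjusted p alone 14 of the 32 (43.8%) were higher and 6 (18.8%) were lower, against 19.2% higher and 19.2% lower among all genes. The changes that passed were mostly small, since 16 of these 20 genes changed by 2-fold or less. The median log2 fold change was 0.26 over the 32 genes, 0.31 over the 20 integrins and 0.22 over the 12 laminins tested, and 0 over all genes. After offsets for GC content and transcript length these medians were 0.18, 0.24, 0.12 and 0. In the 3 limma fits of TPM, the median over the integrin and laminin genes of the fit was 0.03, 0.03 and 0.01. The median gene of these fits was at -0.13, -0.15 and -0.13. In normalized counts, 21 of the 32 genes (65.6%) had groups without overlap, 15 with every library labelled T-MGM above GFP and 6 with every one below, as did 46.8% of all genes tested.

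**Figure D1:**
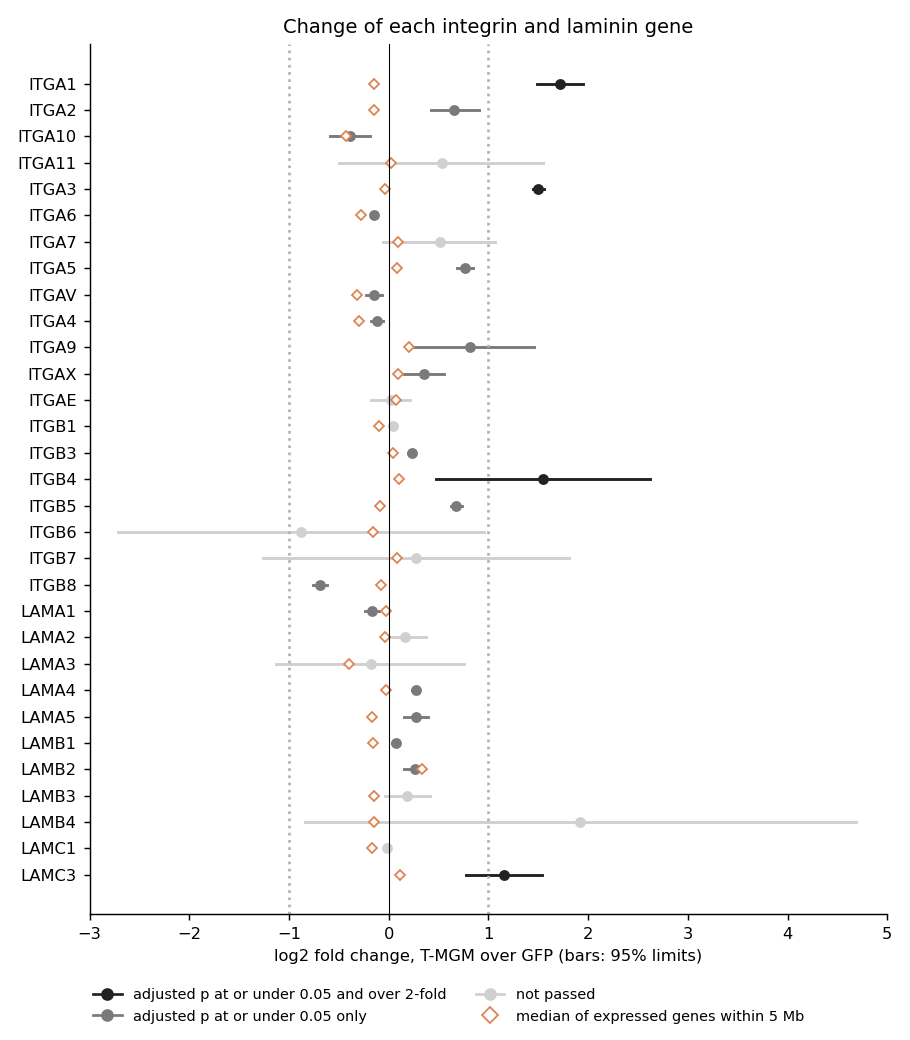
Log2 fold change of 31 of the 32 tested integrin and laminin genes in the libraries labelled T-MGM over GFP (x axis), with 95% limits as bars, in order of role (y axis), and open diamonds for the median of the expressed genes within 5 Mb on each side. Black points passed the adjusted p and changed over 2-fold, dark grey points passed the adjusted p alone and light grey points did not pass. The called genes ITGA1 at 1.72, ITGB4 at 1.55, ITGA3 at 1.5 and LAMC3 at 1.16 lie to the right of the dotted line at 1, as does LAMB4, which had at most 6 reads and did not pass, and the wide bars belong to genes with few counts.

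MITF binds E-boxes and small MAF proteins bind the TGCTGA core of the MAF recognition element. The 250 bases before a single start of each gene in RefSeq (GRCh38.p14) were therefore searched for their letters. Entries were found for 26 of the 38 genes, and those without one included ITGA3, ITGA7, ITGA9, ITGAD, ITGAL, ITGAX, ITGB2, ITGB3, ITGB4, LAMA1 and LAMC3. The E-box CACGTG, which reads alike on both strands, was in 1 of the 26 (ITGA6) and in 6.5% of 27305 promoters of the same length. The variant CATGTG or CACATG, the same letters read on either strand, was in 3 (ITGAE, ITGB7 and LAMA3) against 9.5% of all. TGCTGA or TCAGCA was in 2 (ITGA4 and LAMC1) against 14.1%, and the AP-1 letters TGAGTCA or TGACTCA, which can form part of a longer MAF recognition element, were in 1 (LAMA3) against 4.2%. Of the genes that rose in the libraries labelled T-MGM, ITGA1, ITGA5 and ITGB5 are printed with ITGA6, the one with an E-box, to show what these windows hold. All run 5′ to 3′ on the strand of the gene, and capitals mark a searched motif. The windows are chr5:52787666-52787915 (plus strand) for ITGA1, chr12:54419267-54419516 (minus strand) for ITGA5, chr3:124901419-124901668 (minus strand) for ITGB5 and chr2:172427086-172427335 (plus strand) for ITGA6.
ITGA1: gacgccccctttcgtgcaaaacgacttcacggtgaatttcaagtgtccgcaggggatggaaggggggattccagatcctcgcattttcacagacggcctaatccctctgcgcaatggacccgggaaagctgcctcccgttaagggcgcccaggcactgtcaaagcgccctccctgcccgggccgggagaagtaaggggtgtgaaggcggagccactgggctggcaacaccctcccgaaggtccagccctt
ITGA5: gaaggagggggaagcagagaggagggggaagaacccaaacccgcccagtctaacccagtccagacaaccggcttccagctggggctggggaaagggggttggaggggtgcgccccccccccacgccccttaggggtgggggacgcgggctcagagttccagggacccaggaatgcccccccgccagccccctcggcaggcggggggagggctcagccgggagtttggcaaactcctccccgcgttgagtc
ITGB5: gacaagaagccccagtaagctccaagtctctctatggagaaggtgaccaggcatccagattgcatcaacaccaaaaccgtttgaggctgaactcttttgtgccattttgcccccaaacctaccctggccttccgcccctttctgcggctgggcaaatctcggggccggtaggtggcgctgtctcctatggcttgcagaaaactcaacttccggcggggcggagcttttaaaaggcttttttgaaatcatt
ITGA6: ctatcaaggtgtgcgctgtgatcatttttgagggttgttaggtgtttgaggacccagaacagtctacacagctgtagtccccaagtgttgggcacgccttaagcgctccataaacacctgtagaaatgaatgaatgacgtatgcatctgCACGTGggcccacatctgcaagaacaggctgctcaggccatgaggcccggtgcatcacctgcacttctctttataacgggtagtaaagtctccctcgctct
None of the searched letters was in the windows of ITGA1, ITGA5 or ITGB5. Their GC contents were 62.0%, 70.0% and 52.8%, and that of ITGA6 was 50.8%. A match here is a description of letters and not of a bound site. The windows of LAMA3 (chr18:23872770-23873019), LAMA4 (chr6:112254568-112254817) and ITGB1 lie inside the bounds of these genes in GENCODE, so other starts were not searched. Several other windows, such as those of ITGA4 and ITGB8, lie partly inside the bounds. For ITGA6, the bases just after the start used were in no GENCODE transcript of the gene.

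Among the alpha subunits of laminin receptors, ITGA3 rose 2.83-fold in the libraries labelled T-MGM and ITGA6 fell slightly. ITGA3 (ENSG00000005884.18; GRCh38 chromosome 17, 50055968 to 50090481) encodes the partner of ITGB1 in a receptor for laminins of the skin. Its normalized counts were 2792, 2700.3 and 2687 in GFP libraries and 7627, 7699 and 7824 in those labelled T-MGM. The groups were far apart, and each library lay close to its group mean (2726 ± 57.1 and 7717 ± 100, SD, n = 3 each). The log2 fold change was 1.5 (SE 0.03), a 2.83-fold increase with 95% limits of 2.72 and 2.94, and the adjusted p was too small to be written and is listed as 0. In TPM, ITGA3 went from 17.7 ± 0.686 to 47.1 ± 0.721.

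ITGA6 (ENSG00000091409.15; chromosome 2, 172427354 to 172506459), which pairs with ITGB1 or ITGB4, was the most abundant alpha subunit in both groups, at 66.9 ± 1.32 TPM in GFP libraries and 54.1 ± 2.24 TPM in those labelled T-MGM. Its normalized counts were 16650, 16997 and 17061 in GFP libraries and 15244, 15196 and 15350 in those labelled T-MGM, so the groups did not overlap. The change was small, with a log2 fold change of -0.15 (SE 0.02; adjusted p = 1.32e-17). The ratio of ITGA3 to ITGA6 in TPM was 0.273, 0.253 and 0.266 in GFP libraries and 0.892, 0.824 and 0.901 in those labelled T-MGM. ITGA7, the third subunit of the group, had 29 to 50 reads in GFP libraries and 56 to 87 in those labelled T-MGM and did not pass (log2 fold change 0.51, SE 0.29, adjusted p = 0.164).

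Both collagen receptor subunits encoded side by side on chromosome 5 rose, and the collagen receptor subunit on chromosome 1 fell. ITGA1 (ENSG00000213949.9; chromosome 5, 52787916 to 52959209) binds collagen IV of basement membranes together with ITGB1. It had 199, 236 and 178 normalized counts in GFP libraries and 602, 656 and 765 in those labelled T-MGM. All libraries labelled T-MGM lay above all GFP libraries, although their spread was wider than for ITGA3. The log2 fold change was 1.72 (SE 0.12; adjusted p = 4.63e-47), a 3.30-fold increase with 95% limits of 2.81 and 3.87. Of its exonic bases, 2.7% overlap PELO on the same strand, which differed by 0.26. PELO had 998 to 2041 reads, where ITGA1 had 156 to 1036. The pseudogene RPL17P21 on the same strand overlaps 3.1%, and ITGA2-AS1 and PELO-AS1 on the opposite strand overlap 7.5% and 0.6%. The part of these overlaps in the ITGA1 counts was not tested. In TPM the level was low and less even, at 0.58, 1.49 and 0.41 in GFP libraries and 1.70, 1.70 and 2.67 in those labelled T-MGM.

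ITGA2 (ENSG00000164171.11; chromosome 5, 52989340 to 53094779), the alpha subunit of a collagen I receptor, had 230.2, 204 and 195 normalized counts in GFP libraries and 305, 361 and 329 in those labelled T-MGM, again without overlap. Its log2 fold change was 0.66 (SE 0.12; adjusted p = 6.73e-07). ITGA10, a collagen receptor of cartilage, fell from 428 ± 32 to 328 ± 23.5 normalized counts (log2 fold change -0.39, adjusted p = 0.000773). ITGA11, a collagen receptor of fibroblasts, had at most 25 reads in any library and did not pass (adjusted p = 0.485).

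Of the alpha subunits that recognise the RGD sequence in fibronectin and other ligands, ITGA5 rose and ITGAV was slightly lower. ITGA5 (ENSG00000161638.11; chromosome 12, 54395261 to 54419266), which forms the fibronectin receptor with ITGB1, had 1864, 1689 and 1802 normalized counts in GFP libraries and 3095, 3032 and 3007 in those labelled T-MGM. The lowest library labelled T-MGM lay well above the highest GFP library. The log2 fold change was 0.77 (SE 0.04; adjusted p = 4.53e-77), a 1.71-fold increase with 95% limits of 1.61 and 1.8. ITGAV, the common alpha subunit of vitronectin receptors, went from 2373 ± 4.85 to 2143 ± 76.9 normalized counts (log2 fold change -0.15, adjusted p = 0.00093). ITGA8 and the platelet subunit ITGA2B had at most 6 reads in any library and received no adjusted p.

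ITGA4 (ENSG00000115232.14; chromosome 2, 181457202 to 181538940), which binds fibronectin and VCAM1, was among the 3 most abundant alpha subunits, at 26.8 ± 1.41 TPM in GFP libraries and 21.9 ± 1.34 TPM in those labelled T-MGM. Its normalized counts were 6098, 6017 and 6398 in GFP libraries and 5550.4, 5957 and 5582 in those labelled T-MGM, without overlap but with a narrow gap. The log2 fold change was -0.12 (SE 0.03; adjusted p = 0.000465). Of its exonic bases, 26.4% overlap CERKL on the opposite strand, which had at most 6 reads. After offsets for GC content and transcript length, ITGA4 was at 0.02 (adjusted p = 0.676) and ITGAV at 0.05 (adjusted p = 0.383), so both calls ended there and the signs turned.

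ITGA9, a related subunit that binds tenascin and osteopontin, had 28.8, 54.1 and 28.6 normalized counts in GFP libraries and 76.6, 43.9 and 76.0 in those labelled T-MGM. The groups overlapped, since GFP replicate 2 lay above T-MGM replicate 2. Its log2 fold change was 0.82 (SE 0.33; adjusted p = 0.0341), and the call was lost when any 1 of 4 libraries was left out, with adjusted p = 0.154 without GFP replicate 1, 0.16 without GFP replicate 3, 0.182 without T-MGM replicate 1 and 0.175 without T-MGM replicate 3. The change was larger without GFP replicate 2 (1.2) or T-MGM replicate 2 (1.0).

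Among the alpha subunits known from leukocytes, ITGAL, ITGAM and ITGAD had at most 6 reads in any library, and the leukocyte marker PTPRC had at most 2. ITGAX, a subunit of a complement receptor, had a mean of 352 ± 22.6 normalized counts in GFP libraries and 448 ± 39.9 in those labelled T-MGM and rose without overlap (log2 fold change 0.35, adjusted p = 0.00233). ITGAE, which pairs with ITGB7 to bind E-cadherin, was at 18.7 ± 2.45 TPM in GFP libraries and 16.9 ± 1.53 TPM in those labelled T-MGM and did not pass (log2 fold change 0.02, adjusted p = 0.907). Its normalized counts were 475.5 ± 61.8 and 482.8 ± 39.1. By comparison, ITGA5 had 1785 ± 88.5 normalized counts and 9.40 ± 0.366 TPM in GFP libraries. Of the exonic bases of ITGAE, 6.5% overlap HASPIN on the opposite strand, which had 1084 to 1704 reads, where ITGAE had 338 to 679. The partner ITGB7 had at most 15 reads in any library and did not pass (adjusted p = 0.84). Of its exonic bases, 42.3% overlap ZNF740 on the opposite strand, which had 950 to 1544 reads.

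ITGB3 and ITGB1 were the most abundant beta subunits. ITGB3 rose slightly and ITGB1 did not pass, while ITGB5 rose and ITGB8 fell. ITGB3 (ENSG00000259207.7; chromosome 17, 47253827 to 47313743) had 22292, 22019 and 21878 normalized counts in GFP libraries and 25754, 26336 and 25389 in those labelled T-MGM. The groups did not overlap, and the log2 fold change was 0.23 (SE 0.02; adjusted p = 6.83e-43). This subunit is known from platelets and from invasive melanoma, and 33.2% of its exonic bases overlap another gene on the same strand, which had at most 18 reads. ITGB1 (ENSG00000150093.19; chromosome 10, 32887273 to 33005792), the partner of most of the alpha subunits above, had 13435, 13844 and 13742 normalized counts in GFP libraries and 14239, 13788 and 14019 in those labelled T-MGM. The groups overlapped and the difference did not pass (log2 fold change 0.04, SE 0.02, adjusted p = 0.129), with 95% limits of 0.999-fold and 1.05-fold. With the GC and length offsets ITGB1 was at 0.17 (adjusted p = 2.07e-18), and it was at -0.018 when total counts set the scale. It also passed as higher with TMM factors (0.046, adjusted p = 0.0381) and without T-MGM replicate 2 (0.048, adjusted p = 0.0423), and as lower in TPM.

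ITGB5 and ITGB8 both pair with ITGAV, and they moved in opposite directions. ITGB5 (ENSG00000082781.12; chromosome 3, 124761948 to 124901418), part of a vitronectin receptor, had 4098, 3953 and 4125 normalized counts in GFP libraries and 6369, 6579.8 and 6493 in those labelled T-MGM, far above GFP in each. Its log2 fold change was 0.68 (SE 0.03; adjusted p = 1.79e-131), a 1.6-fold increase. ITGB8 (ENSG00000105855.10; chromosome 7, 20330702 to 20415754), part of a receptor that activates latent TGF-beta, had 3825, 3866 and 3868 normalized counts in GFP libraries and 2357, 2503 and 2323 in those labelled T-MGM. It showed the largest fall among the integrin and laminin genes that passed, with a log2 fold change of -0.69 (SE 0.04; adjusted p = 6.45e-83), a 1.61-fold decrease. The ratio of ITGB5 to ITGB8 in TPM was 3.90, 3.67 and 3.53 in GFP libraries and 8.60, 7.90 and 10.2 in those labelled T-MGM.

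ITGB4, the beta subunit that joins ITGA6 in hemidesmosomes, was near the limit of detection. It had 5, 7 and 9 reads in GFP libraries and 27, 27 and 26 in those labelled T-MGM, or 6.0, 7.58 and 10.3 against 24.6, 26.3 and 19.2 normalized counts. The groups did not overlap, and the log2 fold change was 1.55 (SE 0.55; adjusted p = 0.0142) with 95% limits of 1.39-fold and 6.16-fold. The call was lost without GFP replicate 1 (adjusted p = 0.0639), GFP replicate 2 (0.0513), T-MGM replicate 1 (0.0676) or T-MGM replicate 2 (0.074). The TPM values went the other way, at 0.05, 0.22 and 0.45 in GFP libraries and 0.09, 0.15 and 0.16 in those labelled T-MGM. The remaining beta subunits had few reads, with at most 9 for ITGB6, the epithelial partner of ITGAV, which did not pass (adjusted p = 0.522), and at most 3 for ITGB2, the leukocyte beta subunit.

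Among the laminin alpha chains, LAMA4 was by far the most abundant and rose slightly, and LAMA1 fell slightly. LAMA4 (ENSG00000112769.19; chromosome 6, 112107931 to 112254939), a chain of laminins of vessel walls and other mesenchymal basement membranes, had 13583, 13440 and 13611 normalized counts in GFP libraries and 16352, 16407 and 16138 in those labelled T-MGM. The groups lay apart by far more than the spread within them, with a log2 fold change of 0.27 (SE 0.02; adjusted p = 1.99e-54). LAMA1 (ENSG00000101680.15; chromosome 18, 6941742 to 7117797), a chain of embryonic laminin, had 3039, 3026 and 3115 normalized counts in GFP libraries and 2669, 2771 and 2747 in those labelled T-MGM, also without overlap. Its log2 fold change was -0.17 (SE 0.03; adjusted p = 1.15e-05). LAMA5 rose from 842 ± 13.9 to 1014 ± 10 normalized counts (log2 fold change 0.27, adjusted p = 5.49e-05), and its call ended with the GC and length offsets (0.10, adjusted p = 0.214). LAMA2, a chain of muscle laminin, did not pass at 0.16 (adjusted p = 0.321), nor did LAMA3, an epithelial chain with at most 21 reads.

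The main laminin beta chain, LAMB1, rose by a small amount and the main gamma chain, LAMC1, did not pass. LAMB1 (ENSG00000091136.14; chromosome 7, 107923799 to 108003213) had 15171, 15275 and 15469 normalized counts in GFP libraries and 15861, 16210 and 16082 in those labelled T-MGM, a log2 fold change of 0.07 (SE 0.02; adjusted p = 0.000217). LAMC1 (ENSG00000135862.6; chromosome 1, 183023420 to 183145592), the gamma chain of most laminins, had 14428, 14523 and 14556 normalized counts in GFP libraries and 14603, 14284 and 14011 in those labelled T-MGM. These overlapped, and the difference of -0.02 (SE 0.02) did not pass (adjusted p = 0.42), with 95% limits of 0.961-fold and 1.01-fold. With total counts as the scale LAMC1 was at -0.074 and passed (adjusted p = 0.000434).

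LAMB2 (ENSG00000172037.14; chromosome 3, 49121114 to 49133118), the beta chain of synaptic and kidney laminins, had 1326, 1170.4 and 1256 normalized counts in GFP libraries and 1446, 1466 and 1569 in those labelled T-MGM. The groups did not overlap, and the log2 fold change was 0.26 (SE 0.06; adjusted p = 2.06e-05). The calls of LAMB1 and LAMB2 ended with the GC and length offsets (adjusted p = 0.0537 and 0.0541). LAMC3 (ENSG00000050555.18; chromosome 9, 131009174 to 131094473), a gamma chain of restricted expression, had 76.7, 81.2 and 74.2 normalized counts in GFP libraries and 137, 199 and 183 in those labelled T-MGM, without overlap. Its log2 fold change was 1.16 (SE 0.20; adjusted p = 2.06e-08), a 2.23-fold increase with 95% limits of 1.71 and 2.91.

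LAMA3 and LAMB3 are chains of laminins of epithelial basement membranes, and neither passed. LAMB3 had 269 ± 16.8 normalized counts in GFP libraries and 306 ± 5.47 in those labelled T-MGM (log2 fold change 0.18, adjusted p = 0.218). LAMB4 had 1 read in each GFP library and 4, 5 and 6 reads in the libraries labelled T-MGM, counts too low for a fold change (adjusted p = 0.313).

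**Figure D2:**
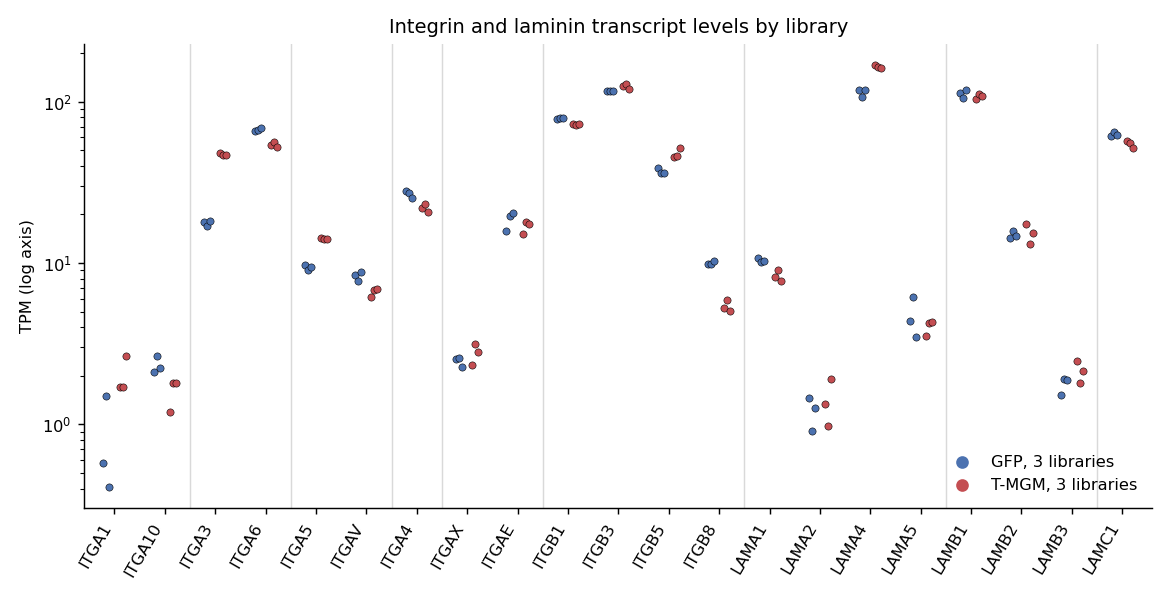
TPM on a log axis for the 21 integrin and laminin genes with a mean of at least 1 TPM in a group, with 1 point per library, blue for the 3 GFP libraries and red for the 3 labelled T-MGM, and vertical lines between roles. ITGA3 rose from 17.7 to 47.1 TPM and ITGB8 fell from 10.01 to 5.41 TPM, while ITGB3, ITGB1 and LAMB1 stayed near the top of the scale in all libraries.

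The make-up of each family was then compared as the percentage of its summed TPM that a subunit took, which does not depend on the scaling of libraries. The largest shifts were in the shares of ITGA3 and ITGA6. Shares of a family sum to the whole, so a rise in any subunit lowers the shares of the others. In counts ITGA6 was at -0.15, ITGA4 at -0.12 and ITGAV at -0.15. ITGA3 took 11.8%, 10.9% and 11.6% of the alpha subunit TPM in GFP libraries and 28.8%, 26.7% and 28.0% in those labelled T-MGM. ITGA6 took 43.2%, 42.9% and 43.6% in GFP libraries and 32.3%, 32.5% and 31.1% in those labelled T-MGM. Neither pair of groups overlapped, and ITGA4 (17.3% ± 1.2 to 12.9% ± 0.56) and ITGAV (5.39% ± 0.34 to 3.92% ± 0.20) also took smaller shares. ITGA5 went from 6.08% ± 0.31 to 8.38% ± 0.26 (SD, n = 3 each).

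Within the beta subunits ITGB5 took 15.2% ± 0.56 in GFP libraries and 19.1% ± 1.4 in those labelled T-MGM, ITGB8 4.12% ± 0.087 and 2.16% ± 0.15, and ITGB1 32.5% ± 0.36 and 29.0% ± 0.37. ITGB3 held 48.0% ± 0.22 and 49.6% ± 1.4, and T-MGM replicate 3, at 48.0%, lay within the range of GFP (exact permutation p = 0.2). Within the laminin alpha chains LAMA4 went from 87.4% ± 1.3 to 92.2% ± 0.47 and LAMA1 from 7.94% ± 0.25 to 4.66% ± 0.35. LAMC1 made up 99.4% ± 0.094 and 98.8% ± 0.24 of the gamma chains. With 3 libraries against 3, the 2-sided exact permutation test cannot give less than p = 0.1, and shares whose groups did not overlap had that value, or 0.147 after Benjamini-Hochberg adjustment over the 22 shares tested. The summed TPM of the alpha subunits was 155 ± 2.42 in GFP libraries and 169 ± 4.23 in those labelled T-MGM, that of the beta subunits 243 ± 0.804 and 250 ± 2.01, and that of the laminin alpha chains 131 ± 5.46 and 179 ± 2.92. The sum of the laminin beta chains was 129 ± 5.96 and 125 ± 1.39, and that of the laminin gamma chains was 63.2 ± 2.14 and 55.5 ± 2.53. The groups overlapped for the laminin beta chains (exact permutation p = 0.5) and not for the other families, where the laminin gamma sum was the lower one in the libraries labelled T-MGM (exact permutation p = 0.1 for each). Unlike shares, these sums depend on scaling, and the median gene was at -0.15 on the log2(TPM + 0.1) scale. LAMC1, most of the gamma sum, was at -0.04 relative to that gene and at -0.02 in counts.

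**Figure D3:**
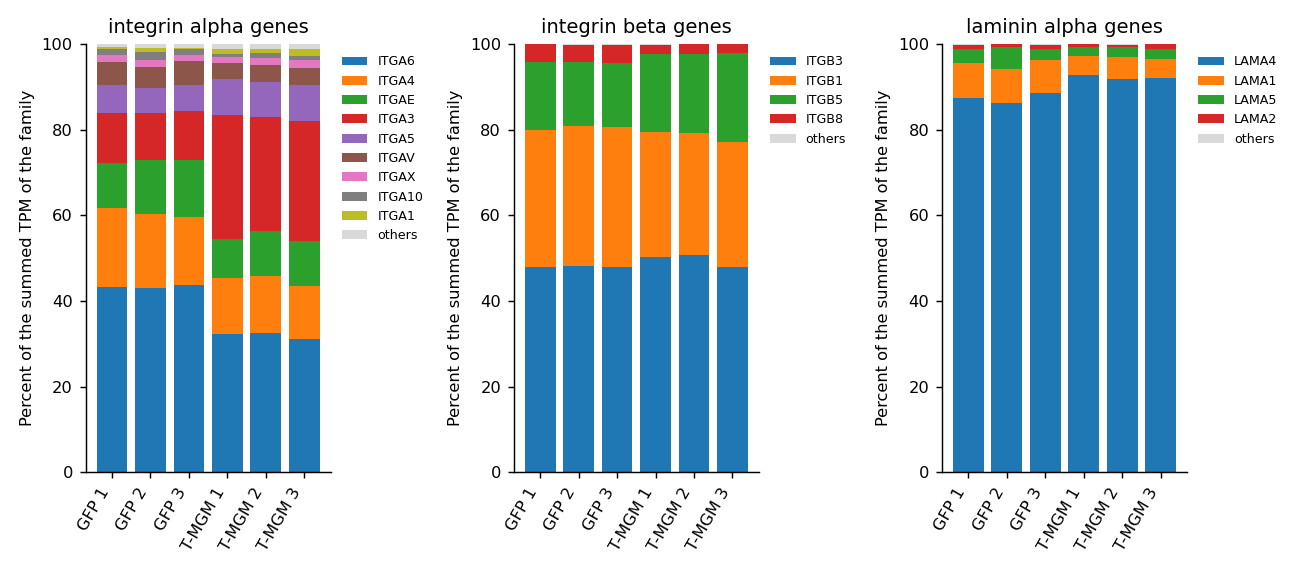
Stacked bars of the percentage of the summed TPM of the integrin alpha, integrin beta and laminin alpha families taken by each subunit, with 1 bar per library. The ITGA3 segment took 10.9% to 11.8% of the alpha family in the GFP bars and 26.7% to 28.8% in the bars labelled T-MGM, and the LAMA4 segment took at least 86.1% of the laminin alpha family in every library.

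The counts and the TPM values were made by different tools and differed for a few genes. The median gene was at -0.15 on the log2(TPM + 0.1) scale between the groups, so TPM changes were read relative to it. Of the 23 integrin and laminin genes in the TPM fit, 19 lay within 0.2 of their change in counts. The other 4 were LAMA4 (0.68 relative to the median gene in TPM, 0.27 in counts), LAMA5 (-0.02 and 0.27), ITGA1 (1.49 and 1.72) and LAMB3 (0.41 and 0.18). For LAMA4 the ratio to LAMC1 was 1.83 ± 0.16 in GFP libraries and 3.01 ± 0.090 in those labelled T-MGM in TPM, but 0.934 ± 0.0081 and 1.14 ± 0.018 in normalized counts. Without reading relative to the median gene, the sign in TPM was opposite to that in counts for LAMA5 (-0.17), LAMB1 (-0.06), ITGB1 (-0.12) and ITGAE (-0.14). By limma on these values, ITGA2 (adjusted p = 0.0856), ITGA10 (0.0634), ITGAX (0.41), ITGB3 (0.0578), LAMA5 (0.538), LAMB1 (0.391) and LAMB2 (0.834) no longer passed. ITGB1 (-0.12, adjusted p = 0.00848) and LAMC1 (-0.20, adjusted p = 0.0128), which did not pass in counts, passed as lower. On log2(TPM + 1) without a filter, ITGA1 (0.76, adjusted p = 0.139) and LAMC3 (0.26, adjusted p = 0.14) did not pass either.

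**Figure D4:**
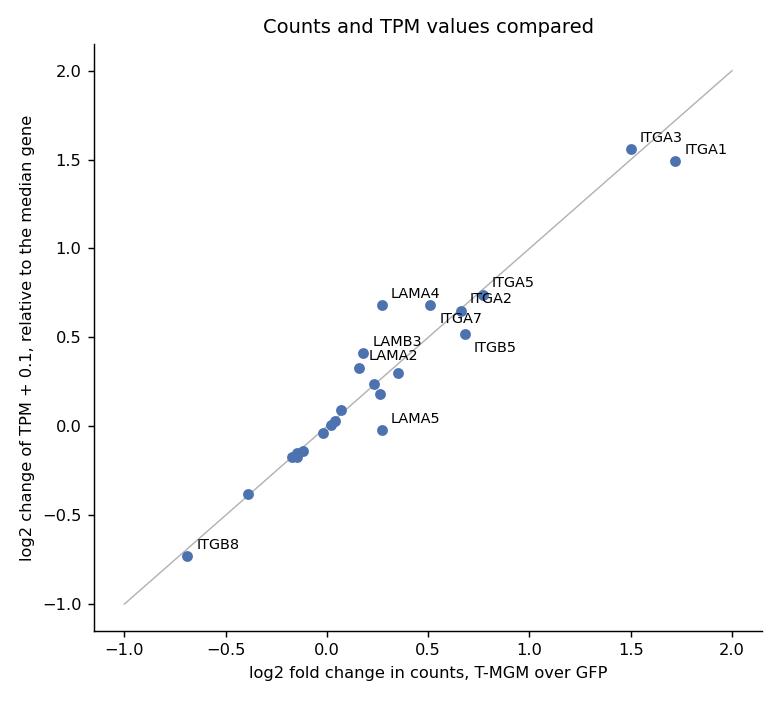
Log2 fold change in counts (x axis) against the log2 change of TPM + 0.1 relative to the median gene (y axis) for the 23 integrin and laminin genes in the TPM fit, with the line of equal values. Most points lie near the line, and LAMA4 lies above it at 0.27 in counts and 0.68 in TPM.

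Several of the small changes had the same direction as the genes around them, and those of ITGA10 and LAMB2 were also close in size. The median log2 fold change of expressed genes within 5 Mb on each side was -0.28 for ITGA6, -0.30 for ITGA4 and -0.32 for ITGAV, all on chromosome 2, where these genes were at -0.15, -0.12 and -0.15. After the GC and length offsets ITGA4 and ITGAV were at 0.02 and 0.05, where their neighbours had medians of -0.16 and -0.19. For ITGA10 the 74 neighbours had a median of -0.43 and the gene was at -0.39. For LAMB2 the 131 neighbours had a median of 0.33 and the gene was at 0.26. Before the offsets all 6 genes that fell had neighbours with a median below 0, and 4 of the 6 were at or above it. After the offsets the neighbours of LAMA1 had a median of 0.09. By contrast ITGB8 was at -0.69 where its neighbours had a median of -0.08, ITGA3 at 1.5 against -0.04, and ITGA1 at 1.72 against -0.15. Of the 14 genes that were higher, 13 lay above their neighbour median. Small rises against the direction of the neighbours were those of LAMA5 (0.27 against -0.17), LAMB1 (0.07 against -0.16) and LAMA4 (0.27 against -0.03). Whether the changes of neighbouring genes bear on those of the integrins and laminins was not tested.

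The partners of integrins and laminins were given by 96 genes in 3 lists drawn up by function. Of 39 tested genes of the cytoplasmic adhesion complex, which links integrins to actin, 21 were higher and 6 lower at the adjusted p, with a median log2 fold change of 0.13 (0.09 after the GC and length offsets), against 19.2% in each direction and a median of 0 over all genes. None of the 39 was called, where 4.63% of all genes were called, so those that passed changed by 2-fold or less. The smallest adjusted p values belonged to ZYX (zyxin, 0.75, SE 0.02, adjusted p = 1.67e-196), ACTN1 (alpha-actinin, 0.30, SE 0.01, adjusted p = 2.87e-88) and TLN1 (talin, 0.31, SE 0.02, adjusted p = 3.07e-71). Of the genes that fell, the adaptor CRK was lowest at -0.31.

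Of 19 tested genes of the basement membrane and of other laminin receptors, 10 were higher and 4 lower at the adjusted p. Among all genes, 19.2% were higher and 19.2% lower. The median over the 19 was 0.31, or 0.15 after the GC and length offsets. SDC2, a heparan sulfate proteoglycan of the cell surface, was the 1 gene of the 19 called, against 4.63% called over all genes, with 679.9, 679 and 689.9 normalized counts in GFP libraries and 1535, 1560.1 and 1678 in those labelled T-MGM (log2 fold change 1.22, SE 0.06, adjusted p = 7.01e-88). SDC3 was at 0.32 (adjusted p = 2.52e-118) and DAG1, which encodes the laminin receptor dystroglycan, at 0.37 (adjusted p = 2.7e-88). NID1, which links laminin to collagen IV, fell from 4242 ± 47.3 to 3099 ± 163 normalized counts (-0.45, adjusted p = 9.69e-37), and SPARC fell by 0.05.

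Of 22 tested matrix ligands of integrins, 12 were higher and 2 lower at the adjusted p, where 19.2% of all genes passed in each direction. The median over the 22 was 0.55, or 0.47 after the GC and length offsets. The 4 of the 22 called were all higher, where 3.26% of all genes were called higher. CCN2, a matricellular ligand, had 1218, 1303 and 1227 normalized counts in GFP libraries and 4019, 3738 and 3969 in those labelled T-MGM (log2 fold change 1.65, SE 0.04, adjusted p listed as 0). COL6A3, a collagen VI chain, had 428, 401 and 346 in GFP libraries and 904, 879 and 871 in those labelled T-MGM (1.18, SE 0.08, adjusted p = 1.14e-43). EDIL3 (1.88, SE 0.40, adjusted p = 1.21e-05) and COL1A1 (1.23, SE 0.32, adjusted p = 0.000608) rose at low levels, from 14.6 ± 4.25 to 53.6 ± 15.6 and from 24.9 ± 6.15 to 58.5 ± 1.96 normalized counts. In TPM the groups did not overlap for EDIL3. They did for COL1A1, at 0.09, 0.31 and 0.11 in GFP libraries and 0.37, 0.17 and 0.16 in those labelled T-MGM. COL1A1 is also one of the fibroblast markers above, whose part in these changes was not tested. Fibronectin, FN1, had 259900 ± 812 in GFP libraries and 298400 ± 3520 normalized counts in those labelled T-MGM (0.20, adjusted p = 9.88e-60).

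**Figure D5:**
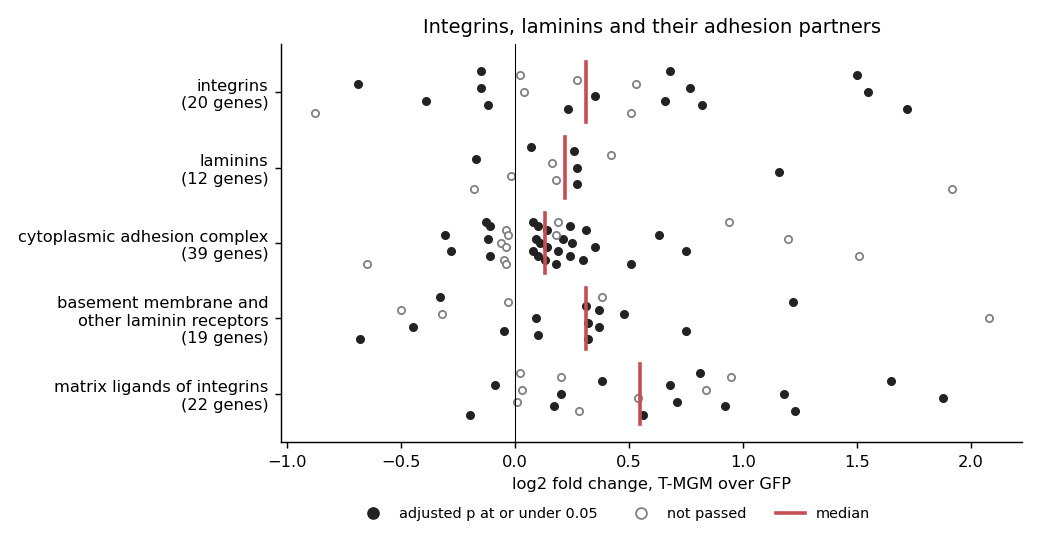
Log2 fold change (x axis) of each tested gene of the integrins, laminins and 3 partner lists (rows), with filled points for an adjusted p at or under 0.05, open points for genes that did not pass and a red bar for the median of each row. The medians were 0.31, 0.22, 0.13, 0.31 and 0.55 from the top row to the bottom row.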

How the data were processed

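RNA from 3 libraries labelled GFP and 3 labelled T-MGM was analysed, with groups and replicate numbers taken from the sample titles. The authors trimmed reads with cutadapt 1.8.1, aligned them to GRCh38 with STAR 2.7.7a and deposited counts of uniquely aligned reads per gene, made with featureCounts, and TPM values estimated with RSEM 1.3.0. The labels name a library kit without strand information and the study's methods a strand-specific one. Reads of genes that overlap on opposite strands, which held for 19 of the 38 genes in GENCODE release 44 (6 overlap a gene on the same strand), may therefore not be told apart. That release holds 99.4% of the identifiers in the table. MCAM and TGFB1 were matched by identifier.

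Counts were tested over all genes with DESeq2 1.42.0 in R 4.3.3 (group as the only term, median-of-ratios size factors, 2-sided Wald test, Benjamini-Hochberg adjustment over all genes, no shrinkage). A gene was called at an adjusted p at or under 0.05 with an absolute log2 fold change over 1, and "passed" refers to the adjusted p alone. Normalized counts are counts divided by the size factor. The 95% limits use the SE of DESeq2. Counts at or under 3 were treated as the floor, 0.0506 to 0.0856 CPM, which covers counting error only, since reads are not independent molecules. Shares of TPM were tested with an exact permutation test over libraries. Alternatives were edgeR 4.0.16 (quasi-likelihood), TMM or total counts as scaling, low-count filters, shrunken fold changes, a test against a log2 fold change of 1, lowess offsets for GC content and length (span 0.3), the replicate number as a block, each library left out in turn, and limma 3.58.1 with trend on log2(TPM + 1) or log2(TPM + 0.1), with or without a minimum of 0.5 TPM in 3 libraries. A fit of protein-coding genes only, medians of neighbouring genes, ratios of subunits and the reading of TPM relative to the median gene were chosen after seeing the data.

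The genes, lists and tests were chosen with earlier results of these data known. Values of every library are given for genes called, for the 3 integrin subunits per family and the 2 laminin chains per family with the highest mean TPM, and for further genes that passed with an absolute log2 fold change over 0.5 and a mean of at least 50 normalized counts. From each partner list the genes called were named, or the 3 with the smallest adjusted p where fewer were called. Of the 38 genes, 1 is not reported singly here. CRK, NID1, SPARC and FN1 were named after their values were seen. Steps were tested on simulated data with 200 changed genes. No 2 libraries of a group were duplicates by a chi-square test of their counts (2.81 to 5.04 per degree of freedom). Same-numbered libraries of the groups did not deviate together (correlations of -0.00234, -0.0404 and 0.0426 over 12654 genes).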

Additional observations from a re-analysis of the deposited data

How the results depend on the processing

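The 4 integrin and laminin genes called became 2 when tested against a change of 1 and 2 with shrunken fold changes, in both cases ITGA1 and ITGA3. By limma they were 1 on log2(TPM + 1) with a filter, 2 on log2(TPM + 0.1) and 1 on log2(TPM + 1) without a filter. The 14 genes higher became 2 when tested against 1, and 5, 5 and 4 by limma in that order, while the 6 lower became 0 when tested against 1, since none of them changed by 2-fold, and 7 in each limma fit. The 5 partner genes called became 2, 3, 1, 2 and 1 in the same order of settings. Leaving out each library in turn gave 3 to 4 genes called, 12 to 14 higher, 6 lower and 5 to 6 partner genes called. ITGB4 was not called in 4 of these 6 fits, and without GFP replicate 2 or T-MGM replicate 2 the count stayed at 4 because ITGA9 was called in its place. Under edgeR, TMM or total-count scaling, the low-count filter, no independent filtering, the GC and length offsets and protein-coding genes alone, 4 genes were called. With the replicate number as a block 3 were called, 12 were higher and 6 lower, ITGB4 (adjusted p = 0.0552) and ITGA9 (0.103) being lost. Same-numbered libraries did not deviate together, which with 3 libraries per group cannot show whether they were prepared as pairs. The block changed no other call of these genes.

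Direction turned for some genes. By limma without a filter these were ITGA11 (-0.0087) and ITGB4 (-0.12), and in the 3 limma fits ITGAE (-0.13, -0.14 and -0.13), ITGB1 (-0.12 in each), LAMA5 (-0.14, -0.17 and -0.14) and LAMB1 (-0.057 in each). With total counts as the scale ITGAE was at -0.033 and ITGB1 at -0.018, and with the GC and length offsets ITGAE was at -0.045, ITGAV at 0.05 and ITGA4 at 0.02. With a library left out ITGAE ranged from -0.08 to 0.094 and ITGB7 from -0.15 to 1.1. The cause was not tested. Of the genes that kept their direction under every alternative run there were 3 of 4 called, 8 of 10 others that were higher and 4 of 6 that were lower. In normalized counts in place of TPM, the LAMA5 share difference was 0.236 percentage points, where it was -1.33 in TPM. Genes with few reads, such as ITGB4, ITGB6 and LAMB4, are limited by depth.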
